A study of Caenorhabditis elegans with 2 samples.

Results

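The nuclear hormone receptor genes of Caenorhabditis elegans were examined as possible places of occupancy for one of their own family, NHR-237. The members were the 269 protein-coding genes of the Ensembl WBcel235 annotation with a symbol starting nhr-, and 5 receptors with other names, daf-12, unc-55, sex-1, fax-1 and odr-7. They came to 274 of 19973 protein-coding genes. The rule used their symbols and no measured value, and was set with earlier results of these data known. The measurements were chromatin immunoprecipitation with sequencing (ChIP-seq) of an eGFP-nhr-237 fusion, in whole L3 larvae of strain OP228, labelled as pooled male and female. This strain carries unc-119(ed3) III and the insertion wgIs228, in both samples alike. The labels number 2 biological replicates and name no other condition, so no comparison between groups was possible. The sources used here do not give the promoter that drives the fusion or its level, and a control library was not analysed here.

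Nuclear hormone receptors are transcription factors with a zinc finger domain that binds DNA and a second domain that can bind small lipophilic ligands, such as steroids. Nematodes have far more of them than other animals, and most of the additional genes descend from a receptor like vertebrate HNF4 and lie in tandem groups. Receptors of this kind often act on the genes of other receptors, as in the moulting cascades of insects and worms. A few worm receptors have well described roles in moulting, dauer formation, fat metabolism and the response to foreign compounds.

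For each replicate and for the pool of both, the authors deposited a ce11 list of 30000 regions that holds peaks and background together. Regions of the pooled list were 350 bp wide in all but 1 case. A region in such a list is called a candidate here, since most are not peaks. The signal is the authors' own value for a region, on a scale that is not stated, and ran from 13.8 to 204 in the pooled list, from 7.61 to 119 in replicate 1 and from 7.41 to 85.9 in replicate 2. It was read only within a list. A separate deposited list, of peaks that the authors kept by irreproducible discovery rate (IDR), held 48 regions, the lowest with a signal of 42.7. A gene was scored by the highest candidate with its summit from 1000 bp upstream to 100 bp downstream of the gene start.

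The receptor genes held candidates at their starts about as often as other genes did. A pooled candidate was present at 84 of the 274 members (30.7%), against a background of 31.1% of all protein-coding genes. In replicate 1 there were 86 members (31.4%, background 30.5%), and in replicate 2 also 86 (31.4%, background 31.2%). When all protein-coding genes were weighted to the members' chromosomes, the background of the pooled list was 31.5%. The signals of those candidates were also ordinary. Over the 84 members the pooled signal ran from 13.9 to 30.3 with a median of 18, and the median over the 6207 protein-coding genes with a candidate was 17.9. The median member candidate stood at percentile 54.7 of the pooled list, and that of all genes at percentile 53.6.

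No member had an IDR peak at its start, against a background of 0.0951% (19 genes). The member of highest pooled signal ranked 574 in that list, and every member lay below the lowest IDR signal. Among the 1000 highest pooled regions, 4 members were represented (1.46%, background 1.42%), and among the 5000 highest, 15 (5.47%, background 5.89%). The member start nearest to any IDR summit was that of nhr-62, a receptor needed for the response to dietary restriction, at 10524 bp.

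**Figure D1:**
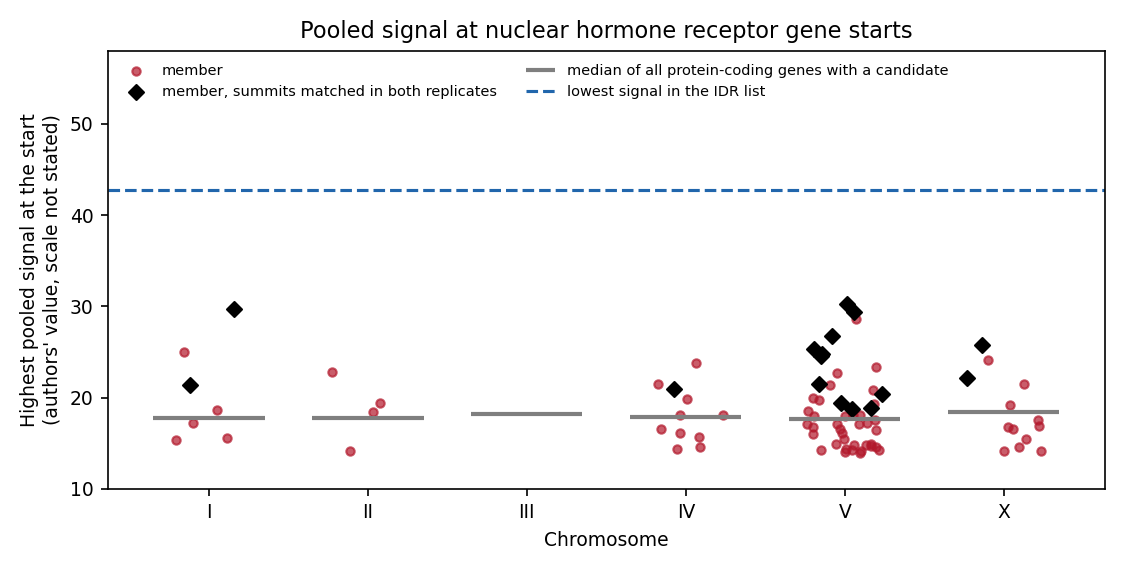
Highest pooled signal at the start of each of the 84 members with a candidate, by chromosome (signal is the authors' value, scale not stated). Grey bars give the median of all protein-coding genes with a candidate, diamonds the 16 members with matched summits in both replicates, and the dashed line the lowest IDR signal, 42.7; all members lie between 13.9 and 30.3.

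The family is concentrated on V, which carries 167 of the 274 members, or 3.34% of its protein-coding genes. IV has 33, X 27, I 24, II 15 and III 8. On V a pooled candidate was present at 49 of 167 members (29.3%), and at 31.9% of all V genes. On X the count was 13 of 27 (48.1%), where all X genes stood at 36.7%. The replicates gave 10 of 27 (37.0%, X genes 35.5%) and 11 of 27 (40.7%, X genes 34.6%). The X share thus stood above its background in the pool, which is made from the same 2 replicates, and near it in replicate 1. The amounts differed between the lists and rest on few genes. On II the replicates went apart, with 7 of 15 members in replicate 1 (II genes 29.0%) and 3 of 15 in replicate 2 (II genes 31.0%). III had 0 of 8 in the pooled list (III genes 31.1%) and 1 of 8 in each replicate (29.7 and 31.1%), nhr-20 and nhr-280. With each chromosome divided into 3 equal lengths, the outer ones, where 199 members lie, had pooled candidates at 29.1% of members and 29.4% of genes. The middle ones had them at 34.7% and 33.9%.

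**Figure D2:**
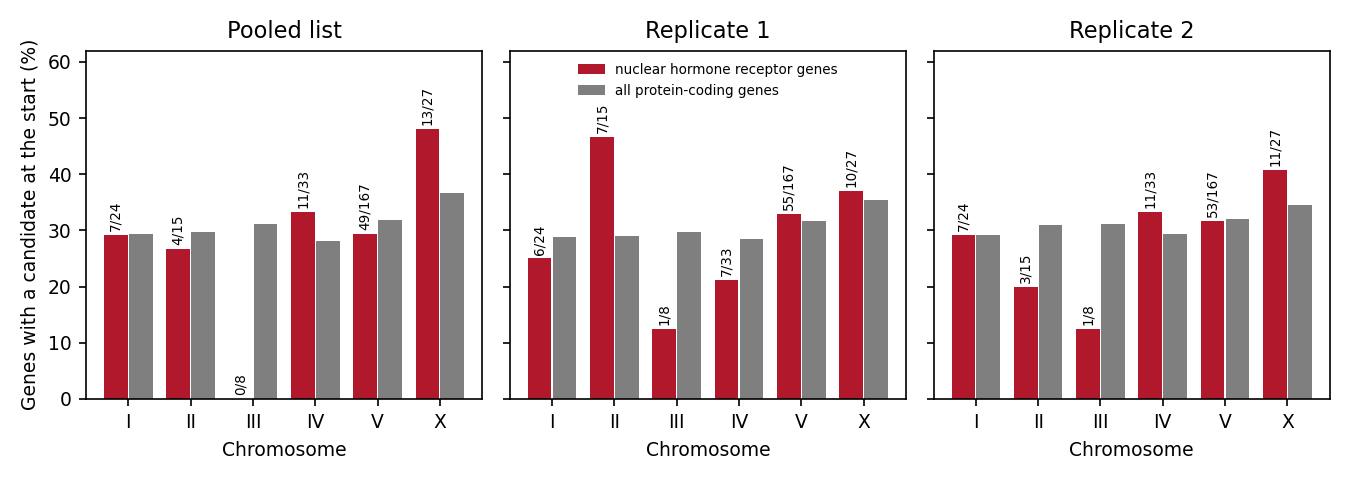
Share of genes with a candidate at the start (y axis, %) by chromosome, in the pooled list and each replicate; red bars are the nuclear hormone receptor genes, with counts printed above, and grey bars all protein-coding genes. The bars on V differ little (29.3% against 31.9% in the pool), and those of II, III and X, with 15, 8 and 27 members, vary between lists.

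The highest signal at the start of a receptor gene came from a small cluster on V. nhr-148 (WBGene00015396, V 7342156 to 7343838, plus strand) had a pooled signal of 30.3 (rank 574), 9.40 in replicate 1 (rank 18023) and 16.1 in replicate 2 (rank 1346). Its region, V 7341569 to 7341918, has its summit 412 bp upstream, in an exon of nhr-263. nhr-263 (WBGene00017367, V 7340403 to 7342042, minus strand) starts next to it on the other strand. It had a pooled signal of 26.7, with 10.1 in replicate 1 and 14.2 in replicate 2, from a second region (V 7342537 to 7342886) whose summit, 670 bp upstream, lies in an intron of nhr-148. The pair thus had a candidate on each side of the paired starts, 968 bp apart. nhr-147 (WBGene00015395, V 7345794 to 7348555, plus strand) had 24.8, 8.83 and 12.6 in the pool and the replicates, at V 7345070 to 7345419, 549 bp upstream and in an exon of srh-244. All 3 genes had summits within 100 bp of each other in the replicates. Their ranks were lower in replicate 1 (from 14291 to 21326) than in replicate 2 (from 1346 to 5478). The cluster's remaining member, nhr-149, had no candidate at its start in any list. The start windows of nhr-148 and nhr-263 consist of sequence found once in the genome, while that of nhr-147 is 80.6% single-copy.

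The bases within 75 bp of the pooled summits of these 3 genes and of nhr-139, nhr-183, nhr-26 and nhr-210 are shown because they are among the highest candidates at member starts. They were read from the RefSeq WBcel235 genome on the strand of the gene, 5′ to 3′. Capitals mark the receptor half-site AGGTCA, its variant form AGTTCA and the repeat GAGAGA, each searched for on both strands.
nhr-148, chrV:7341669-7341819, plus strand: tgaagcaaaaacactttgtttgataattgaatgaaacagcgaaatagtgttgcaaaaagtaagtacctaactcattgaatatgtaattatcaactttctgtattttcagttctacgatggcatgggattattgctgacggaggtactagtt
nhr-263, chrV:7342637-7342787, minus strand: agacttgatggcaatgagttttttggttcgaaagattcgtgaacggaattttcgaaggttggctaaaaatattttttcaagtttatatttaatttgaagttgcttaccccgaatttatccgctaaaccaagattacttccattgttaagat
nhr-147, chrV:7345170-7345320, plus strand: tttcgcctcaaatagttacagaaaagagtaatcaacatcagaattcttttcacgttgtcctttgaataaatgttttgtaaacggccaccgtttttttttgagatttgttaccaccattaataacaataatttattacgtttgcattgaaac
nhr-139, chrV:6987613-6987763, minus strand: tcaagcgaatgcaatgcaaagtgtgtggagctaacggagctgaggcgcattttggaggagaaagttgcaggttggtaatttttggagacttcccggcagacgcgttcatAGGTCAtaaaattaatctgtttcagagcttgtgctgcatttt
nhr-183, chrV:2264631-2264781, minus strand: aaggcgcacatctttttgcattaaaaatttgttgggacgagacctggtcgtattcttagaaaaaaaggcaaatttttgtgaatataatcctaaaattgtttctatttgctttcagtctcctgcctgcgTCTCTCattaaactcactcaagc
nhr-26, chrX:12701051-12701201, minus strand: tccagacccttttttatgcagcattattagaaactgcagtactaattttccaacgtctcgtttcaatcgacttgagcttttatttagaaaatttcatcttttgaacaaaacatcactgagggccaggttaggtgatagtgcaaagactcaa
nhr-210, chrV:519539-519689, minus strand: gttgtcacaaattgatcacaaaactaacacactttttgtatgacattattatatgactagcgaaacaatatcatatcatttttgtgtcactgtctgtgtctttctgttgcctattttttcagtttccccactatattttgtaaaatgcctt
In these 151 bases nhr-139 holds AGGTCA and nhr-183 the reverse complement of GAGAGA, and the other 5 hold none of the motifs.

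Only some of the other high members were found in both replicates. nhr-139 (WBGene00016365, V 6987513 to 6987862) had 29.4 in the pool, 11.2 in replicate 1 and 17.2 in replicate 2, with the summit in an intron 85 bp inside the gene. nhr-265 (WBGene00009608, I 12251666 to 12252015) had 29.7, 13.1 and 14.4, with an intergenic summit 65 bp upstream. nhr-210 (V 519439 to 519788) had 25.3, 16.2 and 12.9, and nhr-26 (X 12700951 to 12701300) 25.8, 11.2 and 13.2. These 4 genes had summits matched in both replicates. The highest candidates of nhr-210 ranked 1523 and 5019 there, with summits 75 bp upstream and 79 bp inside the gene. Those summits were more than 100 bp apart, so the match at nhr-210 involved another candidate. By contrast nhr-183 (V 2264531 to 2264880, summit 72 bp upstream) had 28.6 in the pool and 12.8 in replicate 1, and no candidate within its start window in replicate 2. The nearest replicate 2 summit lay 102 bp inside the gene, just past the 100 bp limit, so this absence depends on the edge of the window. The neighbours of nhr-183 in the ranking, nhr-263 and nhr-139, had candidates in both replicates at similar pooled signals. Of the 15 members of highest pooled signal, 9 lie on V and 11 in clusters. Candidates were present in both replicates for 9 of the 15, and 8 had matched summits. Within the start window, replicate 1 alone held nhr-183, nhr-91, nhr-105, nhr-254 and nhr-257, and replicate 2 alone held nhr-85. nhr-60 (24.6, 8.80 and 9.65) and nhr-53 (22.7, 7.86 and 17.5) complete the 15, and the replicate 1 rank of nhr-53 was 28068.

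Over the whole family the replicates shared few members. A candidate at the start in both replicates was found for 34 members (12.4%, background 13.3%), which is 39.5% of the members in each replicate list. For all genes that share was 43.6% of replicate 1 and 42.6% of replicate 2. Matched summits, within 100 bp of each other, were found for 16 members (5.84%, background 6.68%). All 16 also had a pooled candidate, with signals from 18.8 to 30.3. Beside those named above they were nhr-2, nhr-3, nhr-51, nhr-70, nhr-97, nhr-150, nhr-271 and nhr-283. nhr-2, a receptor gene active in early embryos, had 21.4 in the pool, 14.4 in replicate 1 and 11.7 in replicate 2. nhr-3 had 22.1, 8.49 and 12.6, and nhr-97 20.9, 15.3 and 10.3. The matched pair of nhr-97 and that of nhr-271 did not include the highest replicate 1 candidate of the gene. That of nhr-210 did not join its highest candidates of the 2 replicates. The pool held 84 members, of which 30 were in both replicate lists, 24 in replicate 1 alone, 27 in replicate 2 alone and 3 in neither. No list held a candidate at the start of 133 members (48.5%, all genes 49.2%).

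The ranking by signal differed between the replicates as well. Across the 34 members in both replicates, the percentiles had a Pearson r of -0.02 and a Spearman rho of -0.06. These are descriptions across genes that come from 2 libraries, and over all 2656 such genes the values were 0.08 and 0.09. Of the 10 highest members of replicate 1, 3 had any candidate in replicate 2, and none of them ranked in its highest 5000. Of the 10 highest of replicate 2, 7 had one in replicate 1, again none in its highest 5000. Such counts were not made for the highest of all genes. Of all genes in the list of replicate 1, 43.6% were also in that of replicate 2, and 42.6% the other way. Only 0.981% of all genes had a candidate among the highest 5000 of both replicates. nhr-281 on X had the highest signal of any member in replicate 1, 23.6 (rank 90), with the summit 85 bp inside the gene. It had no candidate at its start in replicate 2. Its pooled signal of 16.8 belonged to another summit, upstream of the start. The nearest pooled summit lay 102 bp inside the gene, just past the 100 bp limit, so 16.8 is not the pooled value of the replicate 1 summit. nhr-90 (20.3, rank 281), nhr-254 (19.6, rank 380) and nhr-257 (18.3, rank 600) also stood high in replicate 1 and were not found in replicate 2. In replicate 2 the highest were nhr-53 (17.5, rank 721), nhr-85 (17.2, rank 810) and nhr-139 (17.2, rank 816).

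**Figure D3:**
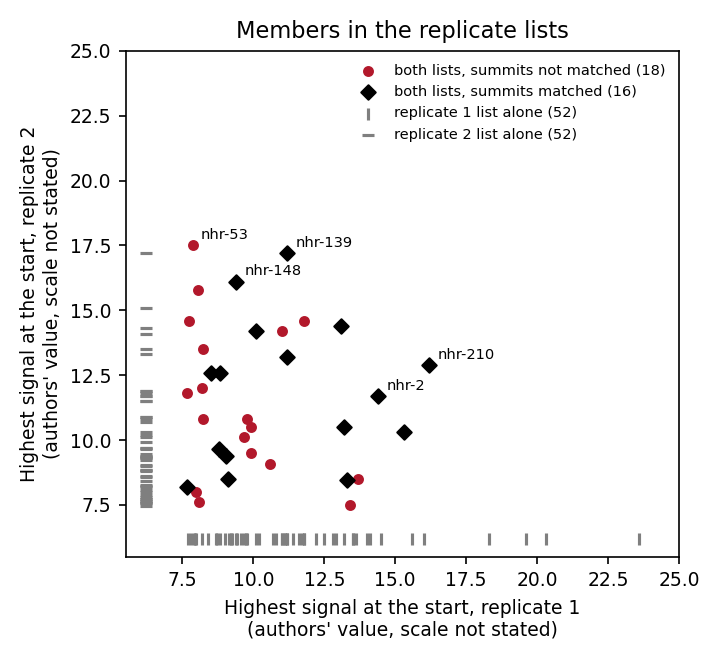
Highest signal at the start of each member in replicate 1 (x axis) and replicate 2 (y axis), on the authors' scale. Red circles and black diamonds are the 34 members in both lists, diamonds the 16 with matched summits, and grey ticks along the edges the members found in 1 replicate alone; the highest member of replicate 1, at 23.6, is a tick, and nhr-53, the highest of replicate 2, sits at 7.86 in replicate 1.

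Clusters were defined as 3 or more members with neighbouring starts at most 50 kb apart. There were 25 such clusters with 152 members, and 16 of the clusters, with 112 members, lie on V. A pooled candidate was found at 47 of the 152 clustered members (30.9%) and at 37 of the 122 others (30.3%). Among the 202 other protein-coding genes that start within the clusters it was found at 26.7%. On V alone the shares were 31.2% of the 112 clustered members and 25.5% of the 55 others, beside 31.9% of all V genes. Single clusters ranged from 0 of 7 members to 3 of 4, which are small counts. The largest clusters have 19 members each. The one from nhr-254 to nhr-155 (V 392628 to 539460) held pooled candidates at nhr-254, nhr-253, nhr-203, nhr-55, nhr-211, nhr-131 and nhr-210. The one from nhr-13 to nhr-226 (V 2192485 to 2294877) held them at nhr-133, nhr-56, nhr-183 and nhr-227. In the cluster of nhr-263 and nhr-148 the count was 3 of 4, as in the X cluster of nhr-17, nhr-26 and nhr-214 and in the V cluster of nhr-90, nhr-190 and nhr-180. Matched summits were found at 3, 1 and 0 members of these clusters.

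The cluster that contains nhr-237 itself held almost no candidates at its starts. It has 7 members from nhr-178 to nhr-238 (V 1607953 to 1629432). None had a pooled or replicate 2 candidate at its start, and nhr-178 alone had one in replicate 1. The start of nhr-237 was 13633 bp from the nearest pooled summit, and those of nhr-110, nhr-117, nhr-179 and nhr-238 were 16013, 14676, 12016 and 11021 bp away. These 5 genes and nhr-259 on I were the members with no summit within 10 kb in any list, 2.19% of the family. Such genes made up 0.466% of all protein-coding genes and 1.30% of those on V. The 5 neighbours count as 1 place and not as 5 cases. Which sequence the insertion wgIs228 carries was not examined, and reads at this locus were not compared with a control library. The lack of candidates here thus does not show that NHR-237 is absent. The start windows of these V genes are 99.7 to 100% single-copy except that of nhr-238 (75.3%), whereas that of nhr-259 is 14.9% single-copy. The cluster from nhr-206 to nhr-136 on V also had no candidate at any of its 7 starts in any list, but its starts lay 712 to 6783 bp from a pooled summit. The 3 genes from nhr-109 to nhr-16 on II had none either.

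**Figure D4:**
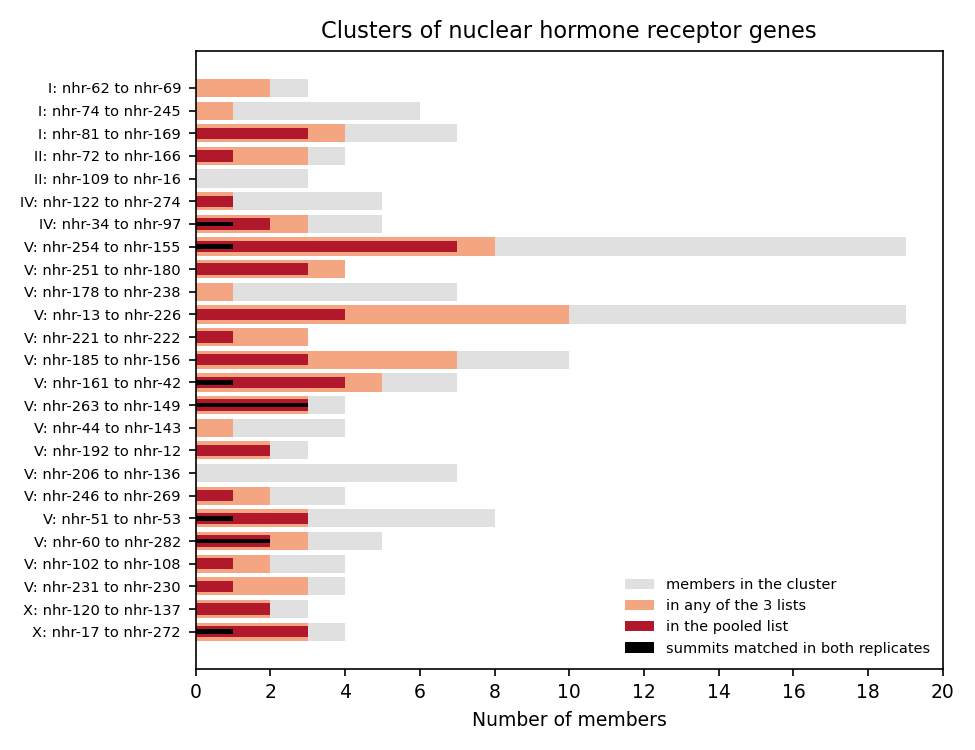
The 25 clusters of nuclear hormone receptor genes, named by chromosome and first and last member; the x axis counts members. Nested bars give all members, those with a candidate at the start in any list, in the pooled list, and with summits matched in both replicates; the clusters from nhr-178 to nhr-238 and from nhr-206 to nhr-136 have no pooled candidate at any of 7 starts.

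The receptors that are conserved in other animals differed between the lists. Of 14 such genes, a pooled candidate was found at 3 (all genes 31.1%), a replicate 1 candidate at 1 (all genes 30.5%) and a replicate 2 candidate at 5 (all genes 31.2%). No gene was in both replicates (all genes 13.3%). nhr-85, related to vertebrate Rev-erb and part of the larval timing pathway, had 25 in the pool and 17.2 in replicate 2, with the summit 608 bp upstream in both. nhr-91, related to the germ cell nuclear factor GCNF, had 24.1 in the pool and 15.6 in replicate 1, with the summit 6 bp inside the gene. sex-1, which counts X chromosomes in sex determination, had 14.2 in the pool and 9.91 in replicate 2, at 364 bp upstream. Replicate 2 alone also held nhr-48 (9.70), nhr-67 (9.37), related to tailless, and fax-1 (9.01), needed for axon guidance. No list held a candidate at the starts of nhr-6, nhr-8, nhr-23, nhr-25, nhr-41, nhr-111, daf-12 and unc-55. odr-7, a receptor of the AWA olfactory neurons, had none.

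Some of these genes had summits inside the gene, past the 100 bp limit. nhr-6, the worm NR4A receptor, had summits 199, 231 and 205 bp inside the gene in the pool, replicate 1 and replicate 2, with signals of 24.4, 17.2 and 8.61. fax-1 had summits 204, 206 and 168 bp inside, with 16, 8.11 and 8.87. nhr-25, related to insect FTZ-F1 and needed for moulting, had summits 875, 853 and 865 bp inside, with 28.2, 10.9 and 16.9. These positions agreed between the lists within 100 bp, and were picked after the values were seen. With the window widened to 1000 bp on each side of the start, a pooled candidate was found at 136 members (49.6%) and at 50.1% of all genes.

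Inside some members, signals were higher than at any member's start. When the whole gene was searched from 1000 bp upstream to its end, 194 members (70.8%) and 66.7% of all genes had a pooled candidate. The members' genes are slightly longer, with a median of 2320 bp against 2027 bp. In daf-12, the receptor for dafachronic acids that controls dauer formation, a region at X 10665391 to 10665740 had a signal of 34.6 (rank 166), with 16.6 in replicate 1 and 14.7 in replicate 2. It lies in an exon 29658 bp from the outermost start and 1160 bp from the nearest transcript start. In nhr-25 a region at X 13010371 to 13010720 had 31.8 (17.0 and 10.8 in the replicates), in an intron. In nhr-23, a ROR-type receptor of the moulting clock, a region at I 7218822 to 7219171 had 31.1 (16.4 and 12.3), in an exon 174 bp from the start of a shorter transcript. In nhr-66 a region at IV 8234246 to 8234595 had 31.7 (19.4 and 9.80), in an exon where anr-44 also lies. In nhr-27 a region at X 12776317 to 12776666 had 30.9 and 15 in replicate 1, in an intron, with no replicate 2 summit within 100 bp. These genes were singled out after their values were seen. On this wider search, which includes the start windows, regions among the 1000 highest were found for 12 members (4.38%) and for 4.10% of all genes. For 8 of the 12 the summit lay more than 100 bp inside the gene. nhr-148 and nhr-263 were counted for the same region.

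Of 14 receptors of metabolism and xenobiotic response, 5 had a pooled candidate (all genes 31.1%), 4 a replicate 1 candidate (30.5%) and 4 a replicate 2 candidate (31.2%). Of these, 3 were in both replicates (all genes 13.3%), with no matched summits. nhr-176, needed for the induction of cyp-35D1 by thiabendazole, had 18.1 in the pool, 9.68 in replicate 1 and 10.1 in replicate 2. Its pooled summit, 948 bp upstream, lies in an exon of that same cyp-35D1 gene. nhr-14, a receptor of iron and immune responses, had 16.6, 8.05 and 15.8, with replicate summits 737 and 289 bp upstream. nhr-49, a regulator of fatty acid metabolism, had 11.8 and 14.6 in the replicates, at 985 and 459 bp upstream, and no pooled candidate. nhr-66, a partner of NHR-49, had 14.4 in the pool and 11.8 in replicate 2. nhr-68, of the propionate shunt, had 16.4 and nhr-28 had 15.5 in the pool, neither of them with a replicate candidate at the start. nhr-10, nhr-13, nhr-64, nhr-69, nhr-80, nhr-86 and nhr-114 had no candidate at the start in any list.

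Of 11 genes that make receptor ligands or act with receptors, 4 had a pooled candidate (all genes 31.1%), 7 a replicate 1 candidate (30.5%) and 2 a replicate 2 candidate (31.2%), so that the replicates differed. cbp-1, the worm CBP/p300 acetyltransferase and a general coactivator, had an IDR peak (III 9765529 to 9765878, 805 bp upstream) with a signal of 42.9 in the pool (rank 47), 19.1 in replicate 1 and 22.3 in replicate 2. gei-8, related to the corepressor NCoR, had 25.2, 10 and 12.7, with matched summits. mdt-15, a Mediator subunit that binds NHR-49, had 21.5 in the pool and 11.2 in replicate 1, with summits 938 and 236 bp upstream. daf-9, the cytochrome P450 that makes dafachronic acids, had 16 in the pool and 8.44 in replicate 1. The corepressor gene din-1, the oxygenase gene daf-36 and the sterol transporter gene ncr-1 were in the replicate 1 list alone, with 8.34, 8.59 and 8.68. hsd-1, strm-1, ncr-2 and dhs-16 were in no list.

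The distance to the start and the sequence of the candidates were compared with those of all genes. The pooled summits lay upstream of the start at 74 of the 84 members, and at 5573 of 6207 among all genes. Their median distance from the start was 377 bp (423 bp for all genes). The members' summits were intergenic at 55 members, in an exon at 23 and in an intron at 6. The member itself held the summit at 10 of these genes and another gene alone at 19. At 6 members the summit also lay at the start of another protein-coding gene. These locations were not counted for all genes, so they have no background. The start windows of the members had a median GC content of 33.8%, against 34.8% for all genes and 34.2% for V genes.

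**Figure D5:**
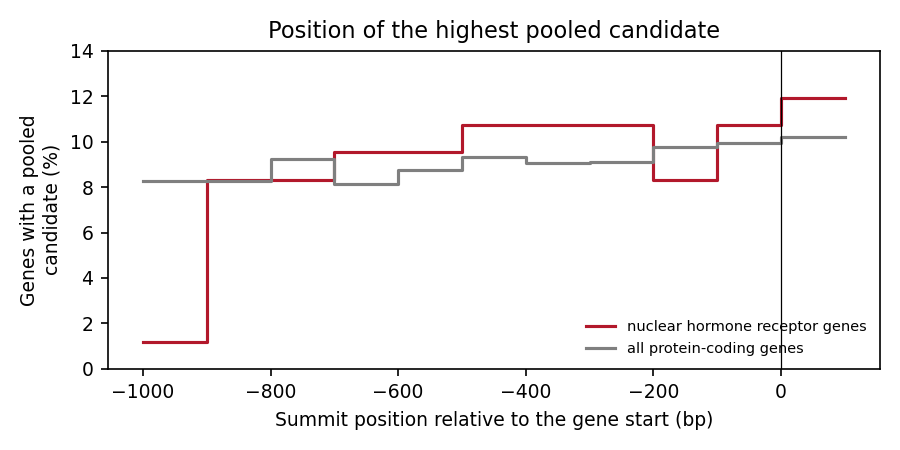
Position of the summit of the highest pooled candidate relative to the gene start (x axis, bp, upstream negative), as a percentage of the genes with a candidate in bins of 100 bp (y axis). Red is the 84 members, grey all 6207 protein-coding genes with a candidate; both are spread over the window, except that the bin farthest upstream holds 1 member (1.19%, all genes 8.27%).

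The half-site AGGTCA, bound by many nuclear receptors, was present on either strand in the start windows of 66 members (24.1%), 25% of all genes and 24.5% of V genes. AGTTCA, a variant half-site, was present at 65.0% of members, 54.8% of all genes and 58.7% of V genes, and GAGAGA at 50.7% of members, 48.7% of all genes and 44.4% of V genes. In the 350 bp regions themselves, AGGTCA was found at 10 of 84 members (11.9%), at 9.60% of the regions at all gene starts and at 8.76% of all pooled regions. AGTTCA was found at 32.1%, 22.5% and 23.8% of the same sets, and GAGAGA at 27.4%, 21.5% and 18.9%. The shares of AGTTCA and of GAGAGA were higher at members than at V genes in the start windows, and than at all gene starts in the regions. The base composition of the windows differs too, and its part was not tested.

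Repeated sequence went with fewer candidates. A window less than 90% single-copy, counted over words of 31 bases, was found for 36 members (13.1%) and 14.6% of all genes. Pooled candidates were present at 6 of those 36 members (16.7%) and at 14.3% of such genes. In windows of at least 90% single-copy sequence they were present at 78 of 238 members (32.8%) and 33.9% of genes. Closely related receptor genes can share reads, and the sources used here do not say how reads with several matches were placed.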

How the data were processed

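Per the submitters' file lists, the authors deposited lists of peaks and background in ce11 for each of 2 replicates and for their pool, and an IDR list. The signal in the deposited lists is the authors' value per region; the sources used here give neither its scale nor the peak caller, aligner or depth. The deposited summit offsets, in bp, placed each summit. The ce10 lists were not used. Genes were those of Ensembl release 115 on WBcel235, positions 1-based, and a gene's start was its outermost. Signal was compared only within a list. Members were described by counts and medians beside all 19973 protein-coding genes, with no test, because the series has 1 group; the replicates are 2 samples, and members are not replicates. Members, role lists and genes named were chosen with earlier results of these data known. Named genes were nhr-237, the 15 members of highest pooled signal and the 5 highest in each replicate. Also named were members with matched summits, the 5 added by name, and members of the role lists with a pooled candidate. Clustered members with a pooled candidate were named for some clusters only. Other members were named after their values were seen. Alternatives were other windows, transcript starts, overlap, list depths, match distances and gaps. A planned search of the receptor proteins for zinc fingers was not run. Placing of regions was tested on simulated data, where 200 of 200 planted regions were found. Python 3.11.15, numpy 2.4.6, pandas 2.3.3 and matplotlib 3.10.9 were used.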

Additional observations from a re-analysis of the deposited data

How the results depend on the processing

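Counts followed the size of the window and the length of the list, by construction, and all genes moved with them. A pooled candidate was found at 133 members with 2000 bp upstream (48.5%, all genes 50.4%), at 27 with the 10000 highest regions (9.85% and 11.3%) and at 15 with the 5000 highest. Among settings added after seeing the data, it was found at 194 members over the whole gene, at 136 with 1000 bp on each side, and at 78 in windows of at least 90% single-copy sequence. Members in both replicates numbered 17 with 500 bp upstream (6.2%, all genes 6.17%), 83 with 2000 bp (30.3% and 29.7%) and 52 by any overlap (19% and 19.5%). They numbered 5 with the 10000 highest regions (1.82% and 2.55%) and 0 with the 5000 highest (all genes 0.981%). Matched summits rose to 26 members within 200 bp (9.49%, all genes 9.24%). The median pooled signal was 17.5 with 500 bp (all genes 17.9) and 18.9 with 2000 bp (all genes 18.3). In the lists of 1 replicate, whose scales differ from the pool's, it was 10 to 10.4, and the number of members with a candidate was 86 in each. With 500 bp upstream 56 members had a pooled candidate (20.4%, all genes 18.9%), and with every transcript start 99 (36.1% and 35.3%). No IDR peak was found at a member's start with 500 or 2000 bp upstream, every transcript start or any overlap. With 1000 bp upstream none was among the 500 highest pooled regions (all genes 0.786%). The whole-gene search was not run on the IDR list. Its highest pooled signal in a member, 34.6 in daf-12, lay below the lowest IDR signal, 42.7. Gaps of 20 and 100 kb put 130 and 180 members in groups, with pooled candidates at 29.2 and 31.7%. With 500 bp upstream nhr-85, nhr-257, nhr-263, nhr-147 and nhr-53, of the 15 highest members, lost their candidate, and that of nhr-26 fell to 14.4. Depth is unknown, so an empty window does not show that NHR-237 is absent there.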
